A study of Mus musculus with 4 samples.

Results

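The 10 genes described here encode enzymes that make, desaturate and lengthen fatty acids, namely Acly, Acaca, Acacb, Fasn, Scd1, Scd2, Elovl5, Elovl6, Fads1 and Fads2. They were taken by symbol as a pathway, with earlier results of these data known. Each was found in a single row among the 54838 Ensembl genes of the deposited files. All 10 had enough counts to be tested, among 12821 genes that had. RNA sequencing of total RNA compared cells of Hepa1-6, an established mouse hepatocellular carcinoma line, in 2 groups of 2 libraries. The knockdown libraries came from cells with an shRNA labelled shSet (genotype Setdb1 knockdown), and the control libraries from cells with an shRNA labelled shNC (genotype Setdb1 wild type), so both groups carried an shRNA. The series title names Setdb1, a methyltransferase of lysine 9 of histone H3, as the target, and the comparison asks which RNAs differ when it is reduced. Neither the promoter and sequence of the shRNAs nor the time after their introduction is given in the sources used here, and the design text speaks of subclones without tying libraries to them. The labels name no separate cultures, so p-values here rest on differences among libraries that may be only technical.

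Cytosolic fatty acid synthesis starts from citrate exported by mitochondria. ATP citrate lyase (Acly) turns it into acetyl-CoA, acetyl-CoA carboxylase adds carbon dioxide to give malonyl-CoA, and fatty acid synthase (Fasn) joins these units into palmitate. Stearoyl-CoA desaturases (Scd1, Scd2) and elongases (Elovl6) then turn palmitate into oleate and other monounsaturated acids, while Fads2, Fads1 and Elovl5 act on polyunsaturated acids from the diet. In liver these genes are known targets of the SREBP transcription factors, and several are also known targets of LXR and ChREBP.

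In the knockdown libraries 5 of the 10 genes fell, 1 rose and 4 did not pass the test. Those that fell were Acly, Scd2, Elovl6, Fads1 and Fads2, and the gene that rose was Acacb. Among all tested genes 1.76% fell, 4.20% rose and 5.96% were called in either direction (adjusted p under 0.05, edgeR quasi-likelihood test). The median log2 fold change of the 10 genes was -0.52, against -0.01 for all tested genes, and 9 of 10 lay below 0. For 8 of 10 genes both knockdown libraries lay below both control libraries in CPM (counts scaled to a common library total), which held for 26.5% of tested genes. Those 8 genes were Acly, Acaca, Fasn, Scd1, Scd2, Elovl6, Fads1 and Fads2. The levels fitted for them in the knockdown were between 56.2% (Fads2) and 75.8% (Acaca) of the control. The 5 that passed lay between 56.2% and 66.9%, and the 3 that did not between 72.2% and 75.8%, while the 95% intervals of all 8 shared the range from 61.6% to 72.5%. Differences between the genes in the size of their fold change were not tested. As the 10 genes were chosen with earlier results known, their contrast with all tested genes is a description and not a test. Together the 10 genes took 0.423% and 0.376% of all counts in knockdown 1 and knockdown 2, against 0.612% and 0.607% in control 1 and control 2. Leaving out knockdown 2 left 2 lower calls, Elovl6 and Fads2. In this and every other fit without a library, the lone library of its group adds nothing to the estimate of the spread and is assumed to vary like the other group. Limma on log2(TPM + 1), where TPM is the RSEM abundance scaled by transcript length, gave 2 lower calls, Scd2 and Fads2, and 0 higher.

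**Figure D1:**
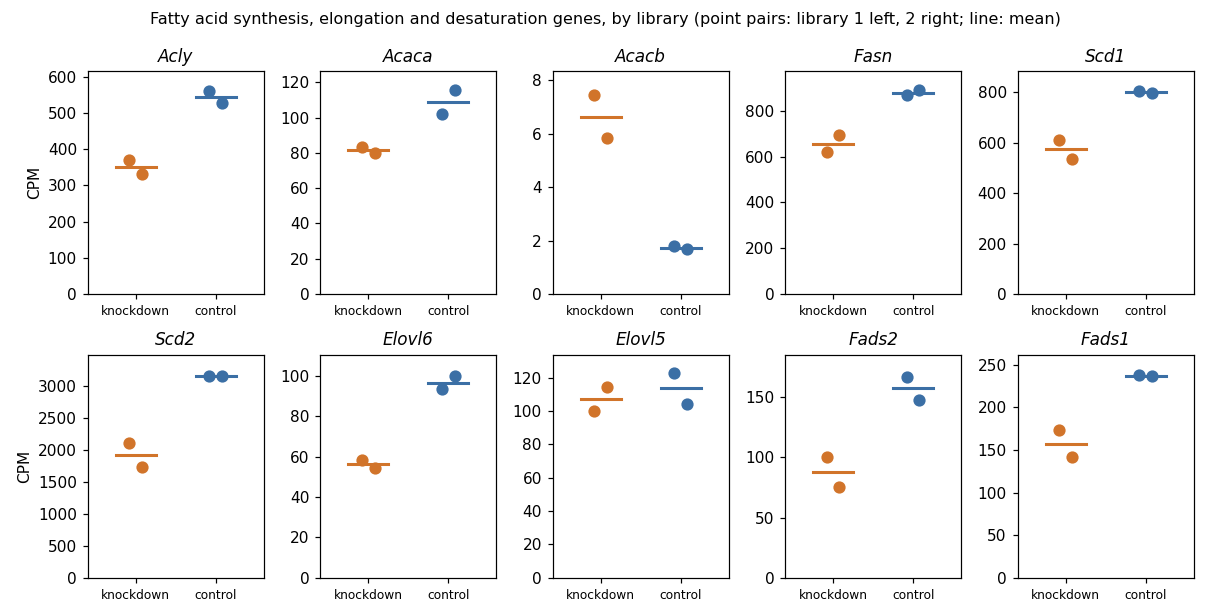
CPM of each of the 10 genes in every library (points; knockdown left in orange, control right in blue; library 1 left of library 2), with the mean of each group as a line and a separate linear axis from 0 for each gene. The points of 8 genes are lower in both knockdown libraries, those of Acacb are higher, and those of Elovl5 overlap.

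**Figure D2:**
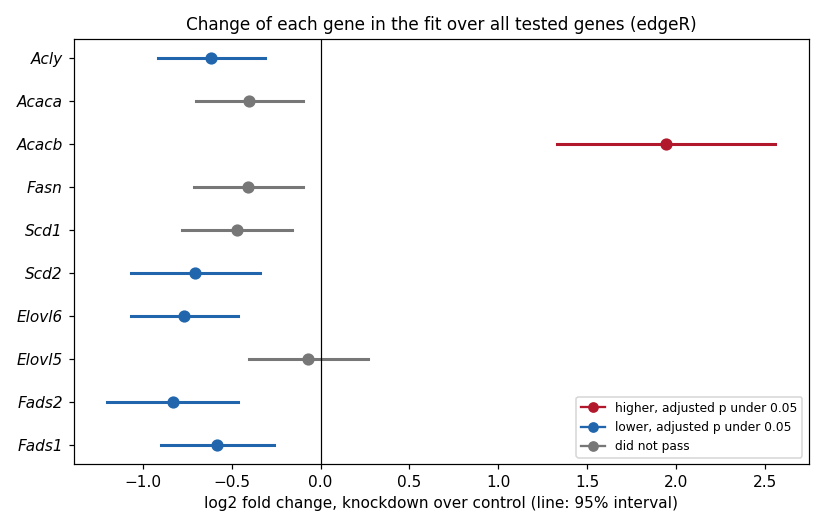
Log2 fold change of knockdown over control for each gene (point) with its 95% interval (line) from the edgeR fit over 12821 genes, coloured by whether the gene passed an adjusted p of 0.05. Acacb lies at 1.94 and the other genes between -0.83 and -0.07, and the interval of Elovl5 spans 0.

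The libraries held between 19513567 and 19615440 expected counts. Setdb1 had 10.96 and 8.585 CPM in the knockdown libraries, against 51.2 and 59.4 CPM in the controls, so the labels were borne out (log2 fold change -2.49, SE 0.182, edgeR adjusted p = 0.00015). Without a low-count filter 0 genes passed in edgeR, Setdb1 included (adjusted p = 0.0877), with 3378 genes at an unadjusted p under 0.05. Without control 1 the calls over all genes numbered 1676, against 764 with all libraries. All 10 hepatocyte markers had counts and 8 were tested, with summed levels of 2092 to 2331 TPM in the knockdown libraries and 1693 to 1830 TPM in the controls. Albumin (Alb) was the called increase and Hnf4a the called decrease, while Apoa1 stayed at or under 0.58 TPM and Ttr at or under 0.34 TPM. Adipocyte markers summed to 1.89 to 1.98 TPM in the knockdown and 4.89 to 5.92 TPM in the controls, with Plin1 and Lep at 0 in all libraries. Of 5, 2 were tested and 1 (Fabp4) was called lower. Leukocyte markers summed to 15.45 to 17.02 TPM in the knockdown and 9.62 to 10.6 TPM in the controls, mostly Cd68. Of 5, 3 were tested and 0 called, with Ptprc at or under 0.06 TPM. Endothelial markers summed to 0.44 to 0.89 TPM in the knockdown and 0.18 to 0.21 TPM in the controls. Only 1 of the 4 had enough counts to be tested, and it was not called. Stellate cell and fibroblast markers summed to 1347 to 1374 TPM in the knockdown and 1227 to 1340 TPM in the controls, nearly all of it Dcn. Of 5, 3 were tested and 1 was called higher. This was Col1a1, at a mean of only 0.77 TPM in the knockdown and 0.175 TPM in the controls. Pdgfrb and Lum stayed at or under 0.03 TPM. Cholangiocyte markers summed to 39.3 to 40.5 TPM in the knockdown and 31.9 to 32.8 TPM in the controls, with 1 of 4 tested (Epcam) called higher. Over all tested genes 4.20% were called higher and 1.76% lower. The part of these shifts in the results below was not tested. In bulk RNA, fewer cells that use a gene and less RNA per cell cannot be told apart.

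Promoter sequences from RefSeq (GRCm38.p6), running from 250 bases before the start to 50 after it, were present for 7 of the 10 genes, and Scd1, Scd2 and Fads1 had none. The windows of Acaca and Acacb lay inside these genes, 65766 and 18983 bases from the first base that GENCODE M21 gives, and are not printed. The other 5 are shown because they hold 3 genes that fell (Acly, Elovl6, Fads2), 1 that lay lower without passing (Fasn) and 1 whose libraries overlapped (Elovl5). The 250 bases before the RefSeq start are given on the gene's strand, at chr11:100528001-100528250 for Acly, chr11:120824548-120824797 for Fasn, chr3:129532136-129532385 for Elovl6, chr9:77917115-77917364 for Elovl5 and chr19:10101504-10101753 for Fads2. Acly, Fasn and Fads2 lie on the minus strand, and Elovl5 and Elovl6 on the plus strand. The RefSeq start of Fads2 lies 243 bases inside the gene as GENCODE M21 gives it, so nearly all of the Fads2 stretch is within those gene coordinates. That of Elovl6 lies 31 bases inside and that of Elovl5 1 base inside, while those of Acly and Fasn coincide. Capitals mark matches on either strand to CCAAT, the box known to bind NF-Y, to GGGCGG, a core of Sp1 sites, to CACGTG, an E-box, or to TCACNCCAC, a core shared by classical sterol regulatory elements.
Acly: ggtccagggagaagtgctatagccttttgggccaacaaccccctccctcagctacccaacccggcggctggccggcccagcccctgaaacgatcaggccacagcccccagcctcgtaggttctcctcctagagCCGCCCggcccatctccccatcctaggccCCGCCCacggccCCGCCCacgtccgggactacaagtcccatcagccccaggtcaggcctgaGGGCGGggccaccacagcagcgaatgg
Fasn: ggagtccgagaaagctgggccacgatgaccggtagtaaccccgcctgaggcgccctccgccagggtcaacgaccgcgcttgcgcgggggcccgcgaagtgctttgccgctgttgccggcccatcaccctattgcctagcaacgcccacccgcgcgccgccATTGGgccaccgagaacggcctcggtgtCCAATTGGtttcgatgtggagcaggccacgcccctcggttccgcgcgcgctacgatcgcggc
Elovl6: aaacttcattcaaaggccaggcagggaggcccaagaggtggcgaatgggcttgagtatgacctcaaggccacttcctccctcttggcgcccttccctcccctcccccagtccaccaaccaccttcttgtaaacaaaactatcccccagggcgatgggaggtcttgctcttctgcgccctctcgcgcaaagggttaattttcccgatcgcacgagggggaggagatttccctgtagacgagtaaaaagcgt
Elovl5: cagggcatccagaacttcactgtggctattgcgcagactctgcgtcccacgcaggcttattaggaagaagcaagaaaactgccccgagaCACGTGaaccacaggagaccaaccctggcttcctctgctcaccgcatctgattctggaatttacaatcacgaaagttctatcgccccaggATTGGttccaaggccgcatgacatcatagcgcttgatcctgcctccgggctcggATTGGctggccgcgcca
Fads2: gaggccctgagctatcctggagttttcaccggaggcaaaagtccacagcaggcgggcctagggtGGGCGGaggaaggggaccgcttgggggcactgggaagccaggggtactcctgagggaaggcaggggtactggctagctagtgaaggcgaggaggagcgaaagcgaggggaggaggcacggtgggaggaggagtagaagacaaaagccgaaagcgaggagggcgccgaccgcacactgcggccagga

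CCAAT was found in the windows of 4 of the 7 genes (Acly, Acacb, Fasn and Elovl5), against 37.4% of 32817 RefSeq promoter windows and 38.1% of the 12092 windows of tested genes. The 7 include the windows of Acacb and of Acaca (without CCAAT), which lie inside these genes, far from the start that GENCODE M21 gives. Fasn held 3 matches, at -90, -62 and -59 from the start, of which the last 2 overlap. The Acly match lies 37 bases after the start, outside the stretch shown. GGGCGG was found for 2 of 7 genes (Acly with 4 matches, Fads2 with 1), against 35.6% of all windows and 62.0% of those of tested genes. CACGTG was found for 1 of 7 (Elovl5), against 7.15% of all windows and 1212 of the 12092 windows of tested genes. TCACNCCAC was found for 0 of 7 genes, against 1.24% of windows, and the Elovl6 window held none of the 4 motifs. These matches describe the letters alone.

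Acly, at the entry to the pathway (chromosome 11, 100476353 to 100528000, minus strand, GRCm38, all coordinates of genes being from GENCODE M21), had 371.6 and 332.6 CPM in the knockdown libraries, against 559.9 and 527.5 CPM in the controls. The groups did not overlap. The gene fell to 65.4% of the control level (95% interval 53.0% to 80.6%, log2 fold change -0.61, SE 0.135, edgeR adjusted p = 0.0289). Without knockdown 2 it did not pass (adjusted p = 0.124), nor did it on log2(TPM + 1) (adjusted p = 0.0541). The mitochondrial citrate carrier Slc25a1, which supplies its substrate, had 84.7 and 61.4 CPM in the knockdown and 115.1 and 105.9 CPM in the controls, and did not pass (log2 fold change -0.58, edgeR adjusted p = 0.0790). Acss2, the other cytosolic source of acetyl-CoA, had 6.42 and 3.01 CPM in the knockdown and 7.86 and 10.6 CPM in the controls, also without passing (adjusted p = 0.127).

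Of the 2 acetyl-CoA carboxylases, Acacb rose on the count scale and Acaca did not pass the test. Acaca, the cytosolic enzyme whose malonyl-CoA feeds synthesis (chromosome 11, 84129672 to 84401651, plus strand), had 83.4 and 79.8 CPM in the knockdown libraries, against 102.1 and 115.4 CPM in the controls. Its libraries did not overlap, and its fold change did not pass the test (log2 fold change -0.40, SE 0.134, edgeR adjusted p = 0.119). Its expected counts were fractional in 4 of 4 libraries, so part of its reads was shared with other features. The opposite-strand gene Gm11437 and the same-strand transcript Gm37391 overlap it. Acacb, the carboxylase anchored at mitochondria whose malonyl-CoA restrains fatty acid entry for oxidation (chromosome 5, 114146535 to 114250761, plus strand), was rare in both groups. It had 146 and 114 counts in the knockdown libraries, against 35 and 33 in the controls, or 7.44 and 5.83 CPM against 1.79 and 1.69 CPM. Both knockdown libraries thus lay above both controls. The fitted level was 3.84 times that of the control (95% interval 2.51 to 5.88, log2 fold change 1.94, SE 0.274, edgeR adjusted p = 0.00383). All Acacb counts were whole, and the opposite-strand pseudogene Gm13784 overlaps the gene. With any single library left out, under the assumption given above for the lone library, edgeR still called it higher.

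Per length the difference in Acacb was smaller, and the transcript mix that RSEM assigned to the gene differed between the groups. Acacb had 1.69 and 1.22 TPM in the knockdown libraries, against 0.85 and 0.57 TPM in the controls, a ratio of means of 2.05, against 3.82 in CPM. The abundance-weighted transcript length was 5656 and 6150 bases in the knockdown, against 2898 and 4086 bases in the controls. The files list 5 Acacb transcripts, of 8788, 8482, 6680, 676 and 506 spliced bases in GENCODE M21, the 8482-base and 8788-base ones being complete coding transcripts of 52 and 53 exons. Short transcripts thus had more weight in the controls. These estimates rest on 33 to 146 reads per library, and Acacb did not pass in limma on log2(TPM + 1) (log2 fold change 0.52, adjusted p = 0.173) or on log2(TPM + 0.1) (0.95, adjusted p = 0.203). The ratio of Acacb to Acaca in TPM was 0.114 and 0.0642 in the knockdown libraries, against 0.0443 and 0.0261 in the controls, so Acaca remained the more abundant carboxylase RNA in all 4 libraries.

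**Figure D3:**
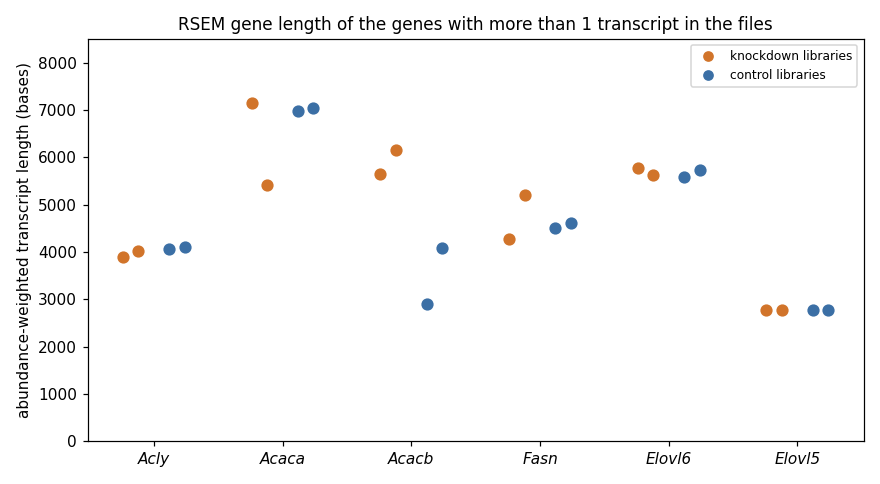
Transcript length in bases, weighted by abundance as RSEM gives it per gene, in each library (knockdown left in orange, control right in blue) for the 6 genes with more than 1 transcript in the files. Acacb has 5656 and 6150 bases in the knockdown and 2898 and 4086 in the controls, Acaca has 5417 in knockdown 2 alone, and Elovl5 has 2782 in every library.

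Among the other genes with several transcripts, the length of Acly split by group by a small amount, with 3885 and 4011 bases in the knockdown libraries and 4066 and 4104 in the controls. The lengths of Acaca, Fasn and Elovl6 overlapped between the groups, and that of Elovl5 was the same in every library. Acaca had 7138 and 5417 bases in the knockdown libraries and 6973 and 7037 in the controls, and the low value in knockdown 2 went with 19.0 TPM there, close to the 19.2 TPM of control 1. Fasn had 4271 and 5211 bases in the knockdown and 4498 and 4619 in the controls, although its longest transcript has 10050, so short transcripts weigh on its TPM in every library. Scd1, Scd2, Fads1 and Fads2 have a single transcript in the files, so their length is the same in every library.

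Fasn, which builds palmitate (chromosome 11, 120805846 to 120824547, minus strand), had 620.8 and 692.1 CPM in the knockdown libraries, against 868.6 and 889.1 CPM in the controls. Both knockdown libraries lay below both controls. The fitted level was 75.5% of the control (95% interval 61.0% to 93.4%), with a log2 fold change of -0.41 (SE 0.137) that did not pass over all genes (edgeR adjusted p = 0.123, unadjusted p = 0.0150). In TPM Fasn averaged 181 ± 12.8 in the knockdown and 260 ± 1.76 in the control (SD, n = 2 each).

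Scd2, a stearoyl-CoA desaturase that is known for wide expression and for activity in fetal and neonatal liver, was the most abundant of the 10 genes in TPM in every library. Located on chromosome 19 (44293674 to 44306864, plus strand), it had 2110.0 and 1733 CPM in the knockdown libraries, against 3163 and 3152 CPM in the controls. The controls differed by little and the knockdown libraries by more, without overlap. The gene fell to 61.4% of the control (95% interval 47.8% to 79.0%, log2 fold change -0.70, SE 0.162, edgeR adjusted p = 0.0348). Without knockdown 2 it did not pass (adjusted p = 0.253). Scd1, the main desaturase of adult mouse liver, lies on the same chromosome (44394455 to 44407879, minus strand). It had 609.6 and 536.6 CPM in the knockdown libraries, against 806.2 and 796.3 CPM in the controls. Its groups did not overlap either, and its log2 fold change of -0.47 (SE 0.137) did not pass in edgeR (adjusted p = 0.0805), whereas DESeq2 called it lower (adjusted p = 0.0257). The ratio of Scd1 to Scd2 in TPM was 0.328 and 0.351 in the knockdown, against 0.289 and 0.287 in the control, higher in both knockdown libraries. Both paralogs had fractional counts in 3 of 4 libraries, so some of their reads were divided between features. Their neighbours in the same cluster, Scd3 and Scd4, had at most 8 counts in any library and were not tested.

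Elovl6, which lengthens palmitate to stearate (chromosome 3, 129532355 to 129638495, plus strand), had 58.3 and 54.3 CPM in the knockdown libraries, against 93.4 and 100.1 CPM in the controls. It fell to 58.8% of the control level (95% interval 47.7% to 72.5%, log2 fold change -0.77, SE 0.134, edgeR adjusted p = 0.0107). With any single library left out, under the same assumption for the lone library, the call held, and on log2(TPM + 1) the adjusted p was 0.0539. The antisense gene Gm35986 overlaps the first bases of Elovl6, and the same-strand transcript Gm43072 also overlaps the gene. Elovl5, which lengthens polyunsaturated acids (chromosome 9, 77917364 to 77984519, plus strand), was the gene of the 10 whose libraries overlapped. It had 100.1 and 114.4 CPM in the knockdown and 122.9 and 104.3 CPM in the controls, with a log2 fold change of -0.07 (SE 0.149, edgeR adjusted p = 0.839). Its 95% interval ran from 75.6% to 120.1% of the control, which still includes a fall as large as the one fitted for Acaca. The ratio of Elovl6 to Elovl5 in TPM was 0.267 and 0.223 in the knockdown, against 0.360 and 0.444 in the control.

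The 2 desaturases of polyunsaturated acids, neighbours on chromosome 19, both fell. Fads2, the entry enzyme acting on linoleic and alpha-linolenic acid (10062765 to 10101746, minus strand), had 100.2 and 75.1 CPM in the knockdown libraries, against 166.8 and 147.7 CPM in the controls. It fell to 56.2% of the control (95% interval 43.5% to 72.6%, log2 fold change -0.83, SE 0.165, edgeR adjusted p = 0.0182), the lowest fitted share of the 10 genes. Fads1, which makes arachidonic acid (10182888 to 10196877, plus strand), had 172.9 and 141.1 CPM in the knockdown libraries, against 237.5 and 236.1 CPM in the controls. It fell to 66.9% of the control (95% interval 53.7% to 83.3%, log2 fold change -0.58, SE 0.141, edgeR adjusted p = 0.0435). Without knockdown 2 Fads1 did not pass (adjusted p = 0.242), nor did it on log2(TPM + 1) (adjusted p = 0.0647). Fads3, the third gene of the cluster and a desaturase of sphingoid bases, had 111.8 and 105.1 CPM in the knockdown, against 98.6 and 94.8 CPM in the controls, without passing (log2 fold change 0.18, SE 0.131, edgeR adjusted p = 0.477). The ratio of Fads1 to Fads2 in TPM was 0.673 and 0.734 in the knockdown, against 0.556 and 0.628 in the control, without overlap.

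Summed over the 10 genes, the level was 1221 and 1052 TPM in the knockdown libraries, against 1801 and 1780 TPM in the controls. The mean of the knockdown was 63.5% of that of the control. Scd2 alone made up 40.8% and 39.0% of the sum in the knockdown, against 42.7% and 43.7% in the control, the largest share of the 10 genes in every library. The order of the levels in TPM was close to the same in both groups. Scd2 averaged 454 ± 62.4 TPM in the knockdown and 773 ± 6.17 TPM in the control (SD, n = 2 for this and the levels that follow). Fasn came next with the values given above, then Scd1 with 154 ± 13.6 TPM in the knockdown and 222 ± 0.339 TPM in the control. Acly had 117 ± 11.9 TPM in the knockdown and 181 ± 7.14 TPM in the control. The polyunsaturated acid enzymes followed. Fads2 had 86.4 ± 17.5 TPM in the knockdown and 159 ± 13.0 TPM in the control, and Fads1 had 60.3 ± 8.55 TPM in the knockdown and 94.1 ± 0.474 TPM in the control. Elovl5 had 52.2 ± 4.999 TPM in the knockdown and 57.1 ± 6.13 TPM in the control, and in the knockdown its libraries overlapped those of Fads1. At the low end, Acaca had 16.9 ± 2.93 TPM in the knockdown and 20.5 ± 1.87 TPM in the control, and Elovl6 12.7 ± 0.375 TPM in the knockdown and 22.8 ± 0.955 TPM in the control. Acaca lay above Elovl6 in both knockdown libraries and below it in both controls. With CPM divided by the length of the longest transcript instead, Elovl6 lay above Acaca and Acly above Fasn in all 4 libraries. Fasn also moved behind Fads2 in both controls and in knockdown 1, and stayed above it in knockdown 2. Fads2 was counted on a single transcript of 1508 bases, while GENCODE M21 gives one of 3150. The rank of Fasn, of Acaca and of Fads2 therefore depends on the length used. For genes with several transcripts, the estimated transcript mix sets the length behind TPM.

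For most of the 10 genes the knockdown libraries differed from each other more than the controls did, with Acaca and Elovl5 the other way. Whether this holds over all genes was not tested. On the log2 scale the replicates of the 10 genes differed by a median of 0.188 in the knockdown and 0.0769 in the control, with largest differences of 0.402 (Fads2) in the knockdown and 0.266 (Elovl5) in the control. Knockdown 2 had the lower value for 8 of 10 genes, all but Fasn and Elovl5. Control 2 was likewise the lower of the controls for 7 of 10.

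Among 73 other genes of lipogenesis, in 8 lists fixed with earlier results of these data known, 64 were tested. Of these 3 rose, 3 fell and 58 did not pass, while among all tested genes 4.20% rose and 1.76% fell. The median log2 fold change of the 64 was 0.02, against -0.52 for the 10 genes and -0.01 for all tested genes. Of 6 tested genes that supply acetyl-CoA, citrate and NADPH, 0 rose and 0 fell (median -0.26), with Me1, Pgd and G6pdx between -0.14 and 0.10. Idh1 lay lower, at -0.38, with libraries that did not overlap, and did not pass (edgeR adjusted p = 0.195). The list of acyl-CoA synthetases (4 tested), that of mitochondrial fatty acid synthesis (7 tested) and that of malonyl-CoA use (4 tested) had 0 genes called, with medians of -0.01, -0.09 and -0.10. The other desaturases and their electron donors, 6 tested, had 0 called and a median of 0.16.

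The other genes of the elongation cycle included 3 that rose and 0 that fell among 9 tested, with a median log2 fold change of 0.48. The shares over all tested genes were 4.20% higher and 1.76% lower. Hacd2, a dehydratase of the cycle, had 169.8 and 168.3 CPM in the knockdown, against 103.9 and 88.3 CPM in the controls (log2 fold change 0.83, SE 0.141, edgeR adjusted p = 0.00915). As with Acacb, its transcript length was greater in the knockdown (2075 and 1840 bases, against 1609 and 1354 in the controls), its ratio was 1.23 in TPM and 1.76 in CPM, and limma on log2(TPM + 1) gave it an adjusted p of 0.241. Hacd4, of the same enzyme family, had 13.9 and 19.9 CPM in the knockdown, against 5.71 and 7.69 CPM in the controls (log2 fold change 1.35, adjusted p = 0.0122), with fractional counts in 4 libraries. The elongase Elovl7 had 57.1 and 58.3 CPM in the knockdown, against 33.9 and 38.3 CPM in the controls (log2 fold change 0.69, adjusted p = 0.0229). On log2(TPM + 1) neither was called, Hacd4 having an adjusted p of 0.0861 and Elovl7 one of 0.135. On the count scale Elovl6 thus fell while another elongase rose in the same libraries.

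AMP-activated kinase phosphorylates and inhibits both carboxylases, and 2 of its subunits were called among 10 tested genes that modify the carboxylases or the synthase. Both were called lower, against 1.76% of all tested genes called lower and 4.20% higher. Prkaa1, a catalytic subunit, had 75.1 and 82.8 CPM in the knockdown, against 124.5 and 116.7 CPM in the controls (log2 fold change -0.60, SE 0.136, edgeR adjusted p = 0.0343). Prkab2, a scaffold subunit, had 4.49 and 5.52 CPM in the knockdown, against 10.3 and 9.79 CPM in the controls (log2 fold change -0.99, adjusted p = 0.0307). Neither passed without knockdown 1 (adjusted p = 0.0992 for Prkaa1 and 0.127 for Prkab2) or on log2(TPM + 1) (0.0723 and 0.108). The other catalytic subunit, Prkaa2, had a log2 fold change of 0.62 without passing (adjusted p = 0.102), and the remaining 7 tested genes of the list lay between -0.04 and 0.25.

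Of 18 tested transcriptional regulators of lipogenesis, 1 fell, 0 rose and 17 did not pass (median -0.10). Among all tested genes 1.76% fell, 4.20% rose and 5.96% were called in either direction. Insig1, which holds SREBP precursors in the endoplasmic reticulum and is itself a known SREBP target, had 31.7 and 37.4 CPM in the knockdown, against 93.2 and 62.2 CPM in the controls. It fell to 44.8% of the control (95% interval 32.5% to 61.8%, log2 fold change -1.16, SE 0.207, edgeR adjusted p = 0.0116). It passed on log2(TPM + 1) as well (limma adjusted p = 0.0438). The SREBP genes themselves did not pass. Srebf1 had 215.1 and 166.6 CPM in the knockdown and 210.2 and 222.6 CPM in the controls, overlapping (log2 fold change -0.17, adjusted p = 0.574). Srebf2 had 338.7 and 283.0 CPM in the knockdown and 382.6 and 371.3 CPM in the controls (-0.26, adjusted p = 0.312). Nr1h3, which encodes LXR alpha, had 7.39 and 7.82 CPM in the knockdown and 6.28 and 4.77 CPM in the controls (0.47, adjusted p = 0.281). Mlxipl, which encodes ChREBP, was scarcely present, with 30 and 19 counts in the knockdown and 4 and 8 in the controls. Its log2 fold change of 2.02 missed the threshold (SE 0.515, edgeR adjusted p = 0.0516). The call depends on the fit, since Mlxipl passed without knockdown 2 (adjusted p = 0.0162), without control 2 (0.0261) and in one fit with the position-named rows (0.0445), and not without knockdown 1 (0.171), without control 1 (0.0794) or in DESeq2 (0.171).

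**Figure D4:**
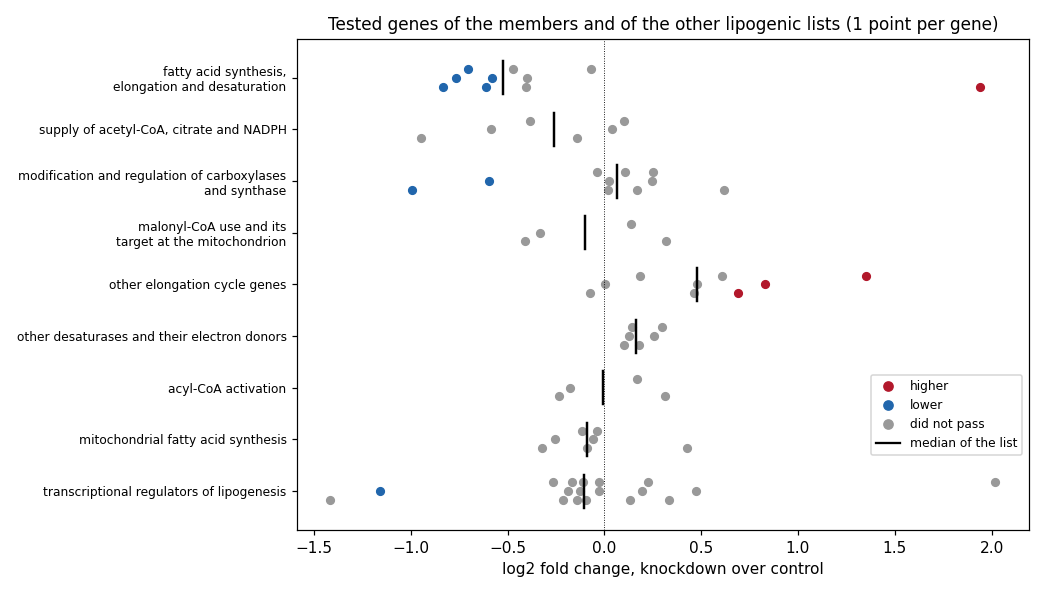
Log2 fold change of knockdown over control (horizontal axis) for each tested gene of the 10 genes (top row) and of the 8 other lipogenic lists, 1 point per gene, coloured by call, with the list median as a black line. The medians are -0.52 in the top row, 0.48 for the other elongation cycle genes and between -0.26 and 0.16 for the remaining lists.

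The files also hold 60983 rows named by position. Of these, 9 lay within 50 kb of the 10 genes, 5 of them near Elovl5 and 1 in an intron of Acaca, and none of the 9 had a count in any library. Acacb had 0 such rows within that distance.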

How the data were processed

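Total RNA of 2 knockdown and 2 control libraries was purified on RNeasy Plus Mini columns, and the libraries were made with NEBNext Ultra Directional reagents, per the labels' protocols. The submitters' processing notes list, without versions or order, GRCm38, mm10, STAR, FastQC, DESeq2 and RSEM. The annotation release is not given in the sources used here, nor is the use of strand in counting. The deposited expected counts (reads divided among features they fit), TPM values (scaled by effective length) and abundance-weighted lengths are those that RSEM writes, per the file headers. Deposited FPKM values were not used.

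Expected counts were rounded and tested with the quasi-likelihood test of edgeR 4.0.16 under R 4.3.3 (TMM, filterByExpr, group as the only term, library size over all rows, Benjamini-Hochberg adjustment over 12821 genes, threshold 0.05). The test was checked on simulated counts. SEs and 95% intervals come from the F statistic. No permutation test was used, since with 2 libraries a group the smallest exact p is 0.333. A count was called whole within 0.005 of an integer. The identifiers of 6 of the 10 genes match GENCODE M21 (GRCm38) with their version, and those of Scd1, Scd2, Fads1 and Fads2 without it.

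The 10 genes and the other lists were chosen with earlier results of these data known. Besides the 10 genes and Setdb1, the text names list members that passed, SREBP, LXR and ChREBP genes and cluster neighbours. Slc25a1, Acss2, Me1, Pgd, G6pdx, Idh1, Prkaa2 and the markers were named after their values were seen. Alternatives were DESeq2 1.42.0, its size factors, other filters, limma 3.58.1 on log2 TPM, the legacy edgeR fit, a replicate block, genes with position-named rows, and leaving out each library.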

Additional observations from a re-analysis of the deposited data

How the results depend on the processing

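With DESeq2's size factors, the legacy edgeR fit, a minimum of 1 CPM in 2 libraries or genes and position-named rows in one fit, the 10 genes kept 1 higher and 5 lower calls. Over all genes these fits gave 748, 732, 683 and 841 calls, in that order (221, 215, 211 and 238 of them lower). DESeq2 called 1 of the 10 genes higher and 6 lower (896 genes in all, 581 higher and 315 lower). Without a low-count filter 0 of the 10 genes passed in either direction, and 0 of all genes, with 9 of the 10 and 3378 of all genes at an unadjusted p under 0.05. Limma on log2(TPM + 1) called 0 of the 10 genes higher and 2 lower (334 genes in all, 245 higher and 89 lower), and on log2(TPM + 0.1) 0 and 3 (327 in all, 242 and 85). Leaving out a library gave 1 higher call each time and 2 to 5 lower calls, and 740 to 1676 calls over all genes (543 to 981 higher, 197 to 695 lower), the most without control 1. The log2 fold change of Elovl5 ranged from -0.20 to 0.068 over these, above 0 without knockdown 1 (0.03) and without control 1, and that of Srebf1 from -0.36 to 0.00273, above 0 without knockdown 2. Neither gene was called in any fit. With a replicate block the calls were 1 higher and 4 lower among the 10 genes (862 in all), Scd2 having an adjusted p of 0.0964 and Mlxipl, called higher there, one of 0.0361. Same-numbered libraries deviated in opposite senses (r = -0.223 across genes, which are not independent), so the numbers were not taken as pairs. The crossed pairing, added after that was seen, gave 2339 calls (1352 higher, 987 lower) and 8 lower among the 10 genes. The causes of these differences were not tested. With 33 to 35 control counts, depth limits the Acacb transcript mix.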
